A study of Caenorhabditis elegans with 2 samples.

Results

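The sites described here are 1332 places on chromosomes II, III, IV and V of Caenorhabditis elegans where the tagged protein of Y95B8A.8 (zfr-1) gave a strong peak that nevertheless stayed out of the authors' thresholded list. They were chosen by signal and score: from the 95095 rows of the ranked list of both replicates, a site was kept with a signal of 50 or more and a score under 830. The signal, never negative, came from the authors' peak caller. The score rises to 1000 as the irreproducible discovery rate falls, a rate that compares the ranks of each peak in 2 lists, and a score of 830 stands for a rate of 0.01. Of 1337 such rows on these chromosomes, 5 overlapped a thresholded peak by at least 1 bp and were left out. The thresholded list held 1189 peaks on the same chromosomes. All samples were whole young adults of strain RW12277 at 63 hours, grown from larvae that had hatched and starved after bleaching. They carried the CRISPR allele st12277, which adds TY1, EGFP and 3xFLAG to Y95B8A.8 at its own locus, and anti-GFP antibody was used for the immunoprecipitation. The 2 samples, labelled as biological replicates, form 1 group. The whole animal was used, so no tissue can be assigned to a site. Neither a control library nor untagged animals were analysed here, and sequencing depth is unknown.

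Chromatin immunoprecipitation recovers DNA that a protein touches directly or through partners, and a peak marks where such fragments pile up. The gene zfr-1 is named after the human zinc finger RNA-binding protein ZFR. A rank-based threshold keeps peaks that stand high in both of the lists compared, so a peak can carry a high joint signal and still fail it when it is weak in 1 list. In this species genes are compact, many lie in operons, and many transcripts are trans-spliced, so an annotated 5′ end is not always the true start.

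The sequences below show what lay under the summits of strong members. For each of 5 short words searched on both strands, they are the summits, with 50 bases on either side, of the 2 sites with the highest signal whose window held the word and no annotated UTR. Capitals mark the word a window was taken for. CTGCGTC is in the first 2 windows, GCGCGC in the next 2, GGTTCGA (the core of the B box, the internal promoter element of tRNA genes) in the next 2, then GAGAGA and last the E-box CACGTG, each as written or as its reverse complement. Letters are from RefSeq on WBcel235, the assembly also called ce11, on the plus strand.
upstream of srh-70, chrII:12518955-12519055: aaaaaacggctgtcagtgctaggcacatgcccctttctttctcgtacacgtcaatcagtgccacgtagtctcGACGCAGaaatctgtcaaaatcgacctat
upstream of C18E9.8, chrII:8988190-8988290: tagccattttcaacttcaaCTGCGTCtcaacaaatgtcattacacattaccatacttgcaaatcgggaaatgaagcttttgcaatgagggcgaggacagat
first part of fat-6, chrIV:11915372-11915472: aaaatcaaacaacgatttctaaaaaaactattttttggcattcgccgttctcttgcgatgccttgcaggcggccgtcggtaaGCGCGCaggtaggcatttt
upstream of uba-1, chrIV:9995152-9995252: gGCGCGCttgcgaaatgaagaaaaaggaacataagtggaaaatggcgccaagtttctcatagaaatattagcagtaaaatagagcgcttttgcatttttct
F36H1.17 and mir-51, chrIV:11026113-11026213: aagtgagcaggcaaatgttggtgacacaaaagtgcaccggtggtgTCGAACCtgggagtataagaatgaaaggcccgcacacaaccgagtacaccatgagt
tRNA gene C27A2.t1, chrII:5057420-5057520: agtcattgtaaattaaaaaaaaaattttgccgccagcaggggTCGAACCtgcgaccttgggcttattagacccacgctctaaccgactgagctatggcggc
upstream of gst-27, chrII:15166018-15166118: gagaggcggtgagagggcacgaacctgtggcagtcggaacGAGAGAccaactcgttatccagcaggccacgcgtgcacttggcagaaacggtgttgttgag
intergenic, IV, chrIV:14876833-14876933: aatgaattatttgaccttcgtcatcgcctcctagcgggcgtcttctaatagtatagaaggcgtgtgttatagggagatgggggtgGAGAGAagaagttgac
intergenic, III, chrIII:4195510-4195610: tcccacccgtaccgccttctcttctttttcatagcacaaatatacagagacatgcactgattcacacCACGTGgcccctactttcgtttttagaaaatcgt
intergenic, IV, chrIV:2219608-2219708: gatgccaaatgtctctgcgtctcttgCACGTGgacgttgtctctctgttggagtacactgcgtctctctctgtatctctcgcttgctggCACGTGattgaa
The windows differ in kind: those at srh-70, C18E9.8, uba-1 and gst-27 lay upstream of a protein-coding gene, that at C27A2.t1 covered a tRNA gene on the minus strand, and the last 3 lay between genes. The gst-27 window also reached the snoRNA gene Y53F4B.48 and the non-coding RNA gene Y53F4B.58, 40 and 42 bp from its summit. At F36H1.17 the summit was inside that non-coding RNA gene, and mir-51, 51 bp from the summit, lay just outside the window. The last window held CACGTG in 2 places and also, unmarked, CTGCGTC and the reverse complement of GAGAGA; no other window held another of the 5 words.

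Most of the sites lay close to the lower limit of the rule. Their signals ran from 50.01 to 124, with a median of 54.5 and an interquartile range of 52.0 to 58.6, and 1060 of 1332 (79.6%) were under 60. The thresholded peaks had a median of 78.6, and 72 of the 1189 had a signal under 50. Of all ranked rows on II to V with signals from 50 to under 55, 96.4% belonged to the sites, against 45.9% from 60 to under 70 and 3.24% from 80 to under 100. No row with a signal of 130 or more did. The scores ran upward from 37, with a median of 586 and an upper quartile of 701. These values chose the sites and are given as a description. Just inside the signal limit, sites on II, III and V had signals of 50.01, 50.01 and 50.02, and just outside it rows on V, II and III had 49.998, 49.996 and 49.995. Just inside the score limit, a site 313 bp inside the eggshell gene cpg-1 had the highest score of the sites, shared with a site in an intron on IV. Just outside it, a row assigned to dlst-1 had 830 with a signal of 57.8.

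**Figure D1:**
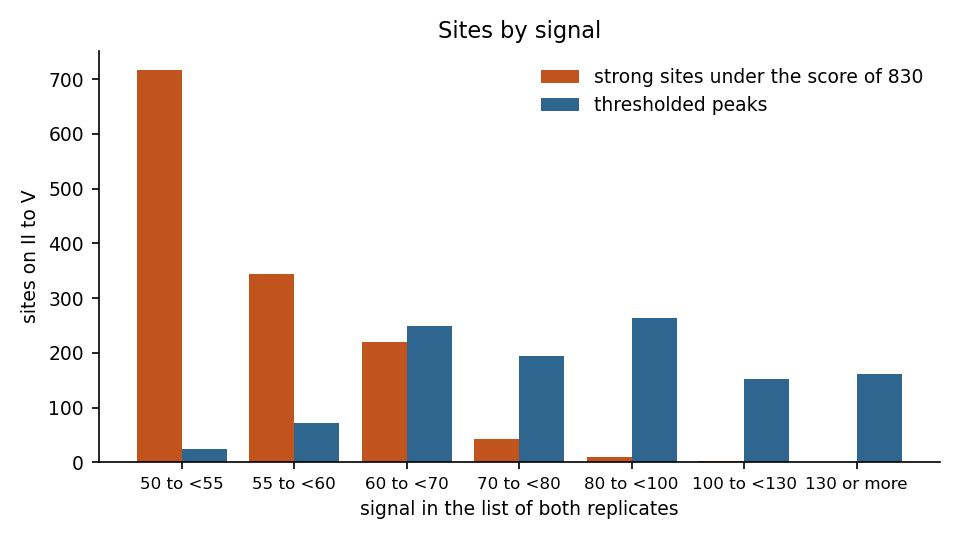
Number of sites on II to V (vertical axis) by signal in the list of both replicates (horizontal axis, unequal classes), for the strong sites under the score of 830 and for the thresholded peaks. The sites number 716 in the lowest class and 9 from 80 to under 100, while the thresholded peaks number 25 and 264 in these classes.

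The score rises with the weaker of the 2 signals compared for it. The compared signals stand in 2 columns of the same list, and the lists they came from are not identified in the file headers. Of its 95095 rows, 0 had a first compared peak from replicate 1's ranked list, and 0 a second from replicate 2's. In the authors' other ranked list of both replicates these were 39591 and 42806 of 86749 rows. The 2 compared signals are therefore not read here as those of the 2 replicates. The lower of them had a median of 22.1 over the 1332 sites, with a highest value of 29.2, against a median of 34.7 and a lowest value of 24.8 over the 1188 thresholded peaks whose row has a score of 830 or more. The 68 sites with a score under 100 had lower signals from 2.89 to 13.6, and the 338 sites with a score of 700 or more had 22.8 to 29.2. Across the sites, the Spearman correlation of the score was 0.95 with the lower signal and 0.34 with the joint signal, as a description of values the score is made from and of a joint signal whose range the rule limits. The 2 signals were 2-fold or more apart at 257 sites (19.3%) and at 29 of the 1188 thresholded peaks (2.44%). Among the 30 sites with the highest joint signal this was so at 24. The rule chose the sites by a score made from these 2 signals, so these counts follow in part from the rule and are given as a description. At the other 1075 sites the signals were under 2-fold apart, and their median joint signal was 54.4, against 56.5 for the 257.

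**Figure D2:**
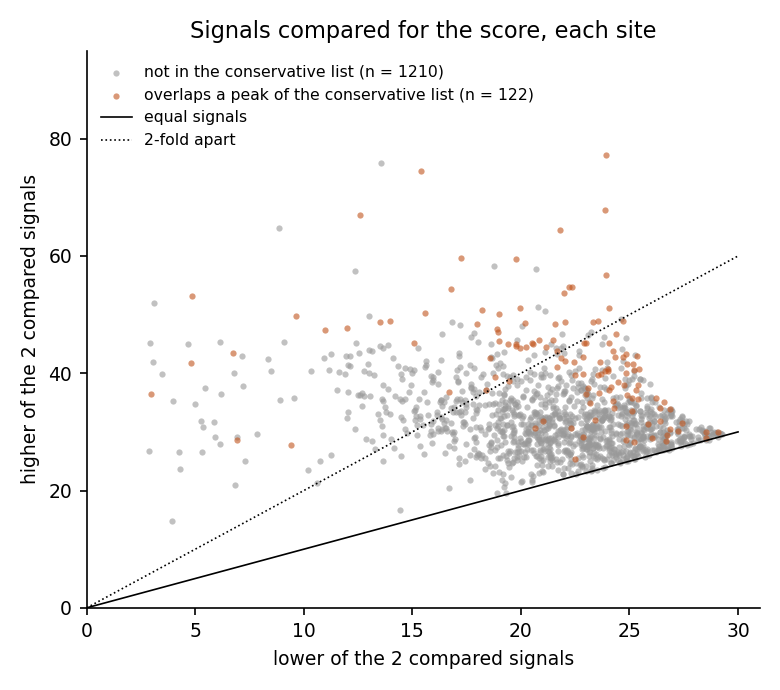
Each point is 1 of the 1332 sites, with the lower of its 2 compared signals on the horizontal axis and the higher on the vertical axis. Orange points (122) overlap a peak of the conservative list and grey points (1210) do not; the solid line marks equal signals and the dotted line a 2-fold difference, with 257 sites on or above it.

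The site with the highest signal lay in the annotated UTR of unc-85, a histone chaperone gene of the ASF1 family (II, 4703043 to 4703332, signal 124, score 153). Its peak had a signal of 63.1 in replicate 1 and 67.0 in replicate 2, both with a score of 1000 in the replicate's own ranked list. It was the only 1 of the 1332 sites that overlapped a thresholded peak of each replicate. Its 2 compared signals were 15.4 and 74.6.

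The second lay between genes on IV (8795168 to 8795457, signal 109, score 82), with 66.2 in replicate 1 and 38.0 in replicate 2. The third lay 642 bp upstream of Y62E10A.3 (IV, 13360741 to 13361030, signal 96.4), with 35.98 and 43.3. Of the 50-base words around its summit, 73.0% also occur elsewhere in the genome. The fourth lay 92 bp downstream of the 5′ end of C47E8.11 and 402 bp upstream of that of gasr-8 (V, 14688563 to 14688852, signal 90.3). There replicate 1 had 70.3 and replicate 2 had 41.7. A further site lay nearby on V, inside hsp-90, which encodes a major cytosolic chaperone (14686207 to 14686496, signal 77.9). Its replicates had 43.1 and 34.9.

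A site lay 369 bp upstream of the gap junction gene inx-7 and 598 bp downstream of the 5′ end of the ribosomal protein gene rps-25 (IV, 5946862 to 5947151, signal 89.4), with 41.6 in replicate 1 and 39.6 in replicate 2. The summit assigned to snr-4, an Sm protein of the spliceosome, was 521 bp upstream of it and inside the snRNA gene C52E4.8 (V, 11980099 to 11980388, signal 88.4), with 49.3 and 38.5. The site at snrp-200, a helicase of the spliceosome, lay 56 bp inside the gene (II, 12736709 to 12736998, signal 78.6), with 36.7 and 40.6. These 3 sites were within 1.3-fold between the replicates.

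Other sites among the first 30 were uneven. At F36H1.17, a non-coding RNA gene on IV with the microRNA gene mir-51 within 51 bp of the summit, replicate 1 had 24.3 and replicate 2 had 57.1 (joint signal 85.3). At Y54G2A.36 replicate 1 had 56.0 and replicate 2 had 24.2 (88.1). At the chemoreceptor gene srh-70 the values were 64.2 and 13.9 (73.8), the widest gap among the 29 of the first 30 with a peak in both replicates. At ogt-1, the gene for the enzyme that adds O-GlcNAc to proteins, they were 21.8 and 37.4 (73.3). Further genes assigned to the first 30 sites were the glutathione transferase gene gst-27 (79.1), the F-box gene fbxb-14 (78.8), znf-593 (78.6, with the summit in the UTR of npp-16), the G protein gene gpa-1 (76.5), T28C12.6 (76.6), C27A2.12 (79.7) and C09E7.7 (81.6). Summits of others lay inside ppm-2, hpr-9, Y71H2AM.3, K08D12.8, C08D8.1, tex-2 and tdc-1, the gene for tyrosine decarboxylase, with signals from 73.5 to 80.6. The other 5 of the 30 lay between genes, 1 of them the second site above. A site on III (3334994 to 3335283, signal 73.2) had no ranked peak in either replicate, and all of the 50-base words around its summit occur elsewhere in the genome.

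**Figure D3:**
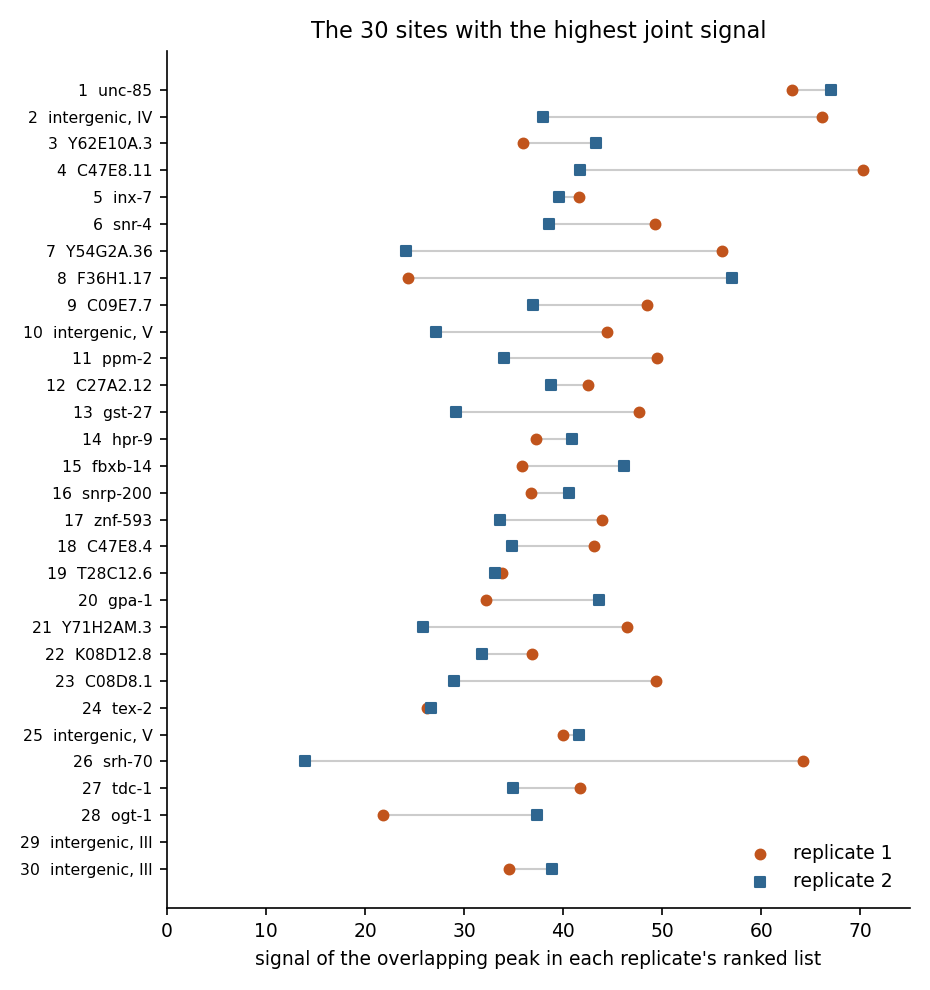
Signal of the strongest overlapping peak in the ranked list of replicate 1 (orange circles) and of replicate 2 (blue squares) for the 30 sites with the highest joint signal, in that order from the top and named by the assigned gene or the gene at the summit. The first site stands at 63.1 and 67.0, srh-70 is split at 64.2 and 13.9, and the site in place 29 has no peak in either list.

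The sites were present in the ranked lists of the single replicates far more often than they passed a threshold there. A ranked peak of each replicate overlapped 1172 of the 1332 sites (88.0%, exact 95% interval 86.1 to 89.7), against 23.9% of all ranked rows on II to V and 97.6% of the thresholded peaks. A peak of replicate 1 alone was found at 80 sites, a peak of replicate 2 alone at 75, and neither at 5. The signals of the first had a median of 33.4 in replicate 1 and those of the second a median of 31.5 in replicate 2. The joint signal that chose the sites was called on both replicates, so presence in each is not independent of the rule and was not tested. The median signal of the overlapping peak was 28.4 in replicate 1 and 26.97 in replicate 2, and at 1056 of the 1172 sites (90.1%) the replicates lay within 2-fold. For thresholded peaks the medians were 42.5 and 39.7, with 1065 of 1159 (91.9%) within 2-fold. Both shares within 2-fold leave out places that lack a peak in 1 or both replicates, which were more frequent among the sites.

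Only few sites were in another thresholded list. In that of replicate 1 there were 21 sites (1.58%), against 0.829% of all ranked rows on II to V, and in that of replicate 2 there were 15 (1.13%), against 0.8%. Of the thresholded peaks of both replicates, 462 and 453 of 1188 were in these lists. The conservative list held 122 of the sites (9.16%, 7.66 to 10.8), against 1.8% of all ranked rows and 77.6% of the thresholded peaks. Of the 30 strongest sites, 20 were in the conservative list, among them those at unc-85, C47E8.11, inx-7, gst-27, fbxb-14 and snrp-200. Its own ranked list gave each of these 6 a score from 986 to 1000. The 122 sites had a median joint signal of 63.8, against 54.1 for the other 1210, and 53 of them had compared signals 2-fold or more apart in the main list. So 122 sites that miss the threshold in 1 of the authors' comparisons pass it in the other. A further 3 sites had a score of 830 or more in that second list without being in the conservative list, and 2 of them, Y62E10A.3 and a site between genes on V (7919895 to 7920184), lay in repeated sequence.

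Over all signals, fewer of the sites than of the thresholded peaks lay at promoters and more lay in coding exons, and neither difference was called between signals of 60 and 70. A promoter here runs from 1000 bp before a protein-coding 5′ end to 500 bp after it, and shares were compared by two-sided Fisher's exact tests with Benjamini-Hochberg adjustment over 8 shares. Promoters held 497 of 1332 summits (37.3%, 34.7 to 39.97) against 606 of 1189 (50.97%, 48.1 to 53.8), a difference of -13.7 percentage points (adjusted exact p = 2.29e-11). Coding exons held 259 (19.4%, 17.4 to 21.7) against 92 (7.74%, 6.28 to 9.41), a difference of 11.7 points (adjusted exact p = 4.80e-17). Of all bases on these chromosomes, sampled at every 100th, 27.9% were promoter and 18.1% coding exon. Introns held 19.9% of the sites against 15.98% (adjusted exact p = 0.0177), a call lost for sites of 60 or more, with the conservative lists, with compared peaks in the same signal range and in each of 3 classes of signal between 50 and 70. The shares between genes, 14.6% and 15.1%, did not pass (adjusted exact p = 0.779). The p-values are over sites, which are not replicates and not independent of each other.

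The thresholded peaks were stronger, so both sets were also taken from the same class of signals, comparisons chosen after seeing the data. The 2 differences were about as wide between 50 and 60, and narrower between 55 and 60 and between 60 and 70. Between 50 and 60, promoters held 36.1% of the 1060 sites and 51.04% of the 96 thresholded peaks (-14.9 points, adjusted exact p = 0.0150), and the coding exon difference was 11.5 points (adjusted exact p = 0.0150). The signals are not equal within that class, since 716 of the 1060 sites but 25 of the 96 peaks lay under 55. Between 55 and 60, with 344 sites and 71 peaks, the differences were -11.8 points for promoters (adjusted exact p = 0.188) and 7.001 points for coding exons (adjusted exact p = 0.248). Between 60 and 70, with 219 sites and 249 peaks, promoters held 41.6% and 43.8% (-2.22 points, adjusted exact p = 0.846) and coding exons 15.5% and 11.2% (4.28 points, adjusted exact p = 0.732). From 70 to under 80, with 42 sites and 194 peaks, coding exons held 9.52% and 10.3%. The differences over all signals are therefore not shown at matched signals of 55 and above. Rows one step weaker, the 3218 with signals from 40 to under 50 and scores under 830, had 33.9% at promoters and 23.0% in coding exons. With the lists of a single replicate neither difference passed. The signal limit of 50 was kept there, though signals run lower in those lists. The peaks overlapping the sites had medians of 28.4 in replicate 1 and 26.97 in replicate 2. The few rows left are therefore stronger within their list than most of the sites, and leaving out a replicate was not tested at a like limit. Without replicate 1 the rule leaves 15 sites, and the differences were -2.80 points for promoters and -6.65 points for coding exons. Without replicate 2 it leaves 32, and they were -4.69 and 2.59 points.

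**Figure D4:**
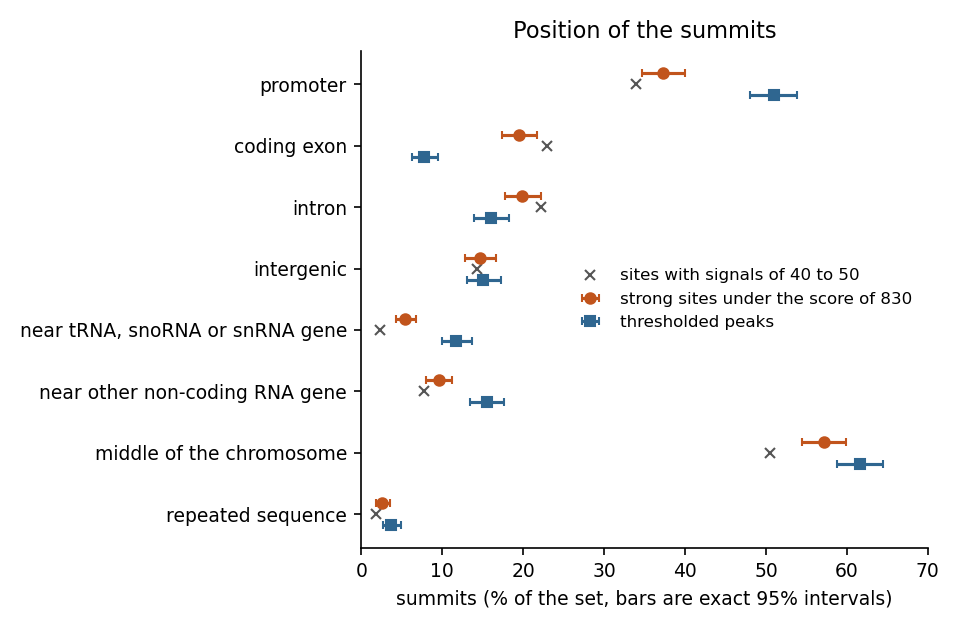
Share of summits (horizontal axis, percent of each set) in 8 kinds of position for the 1332 strong sites under the score of 830 (orange circles), the 1189 thresholded peaks on II to V (blue squares) and the 3218 weaker rows (crosses); bars are exact 95% intervals. Promoters stand at 37.3% against 50.97% and coding exons at 19.4% against 7.74%, with the weaker rows beyond the sites in both.

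Over all signals, the placement at 5′ ends also differed, and it was not compared at matched signals. A protein-coding 5′ end lay within 1000 bp of 606 sites (45.5%), and 309 of these summits (50.99%, 46.9 to 55.04) were at or upstream of it, with a median position of -12.5 bp. For the thresholded peaks 476 of 677 (70.3%, 66.7 to 73.7) were at or upstream, with a median of -156 bp, and the difference was not tested. A second 5′ end was within reach at 151 sites (11.3%) and at 246 thresholded peaks (20.7%). Among coding exon sites, 54 of 259 had a 5′ end within 1000 bp. The strongest of the 259, named after their values were seen, were those in fbxb-14 (570 bp from the 5′ end, 35.8 in replicate 1 and 46.2 in replicate 2) and K08D12.8 (signal 75.3, with 36.8 and 31.8, and no 5′ end within 1000 bp).

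Over all signals, small non-coding RNA genes lay near fewer of the sites than of the thresholded peaks. A tRNA, snoRNA or snRNA gene lay within 250 bp of 72 sites (5.41%, 4.25 to 6.76) against 139 thresholded peaks (11.7%, 9.92 to 13.7; adjusted exact p = 3.70e-08), while 0.533% of bases are that close. The difference was -2.13 points and was not called for sites of 60 or more (adjusted exact p = 0.455), and between signals of 50 and 60 it was -0.869 points (adjusted exact p = 0.693), and between 60 and 70 it was -1.07 points (adjusted exact p = 0.846). Without replicate 2, at the same signal limit in a list where signals run lower, it was 10.3 points over 32 sites and was not called (adjusted exact p = 0.251). The sites numbered 44 at tRNA genes, 19 at snoRNA genes and 9 at snRNA genes. They covered 45 of the 270 tRNA genes on these chromosomes (16.7%), and the thresholded peaks covered 72 (26.7%).

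The strongest tRNA sites were at C27A2.t1, whose window is printed above (II, signal 79.7, with 42.6 in replicate 1 and 38.8 in replicate 2), Y39A1A.t1 (III, 78.8, with 37.3 and 40.9), T28C12.t1 (V, 76.6, with 33.9 and 33.1) and F42H10.t1 (III, 72.4, with 36.2 and 28.9). In all 4 the summit was inside the tRNA gene and the replicates were within 1.3-fold, and all 4 were in the conservative list. Over the 44 tRNA sites, 11 were in that list and 19 had the summit inside the gene. The strongest snoRNA sites were at Y53F4B.48 (79.1, the gst-27 site), C08D8.3 (74.96), T21B4.20 (73.8, the srh-70 site) and K11C4.6 (71.2). The snRNA sites were led by C52E4.8 (88.4), sls-2.13 (63.3), which encodes an SL2 leader RNA of trans-splicing, F08G2.11 (62.3) and F08H9.10 (61.2). None of the 9 snRNA sites was in the conservative list, which held 9.16% of all sites, and 9 sites are too few to compare. Genes of one tRNA family are near-identical, and how reads were shared between copies was not tested.

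Other non-coding RNA genes lay within 250 bp of 127 sites (9.53%) against 15.5% of the thresholded peaks (adjusted exact p = 1.33e-05). Of all bases on these chromosomes 9.24% are that close, so the share of the sites was near that of the bases. Between signals of 50 and 60 the difference was -10.1 points (adjusted exact p = 0.0150), between 55 and 60 it was -7.84 points (adjusted exact p = 0.188) and between 60 and 70 it was 0.281 points (adjusted exact p = 1), and it was not called for sites of 60 or more (-2.61 points, adjusted exact p = 0.455). Without replicate 2, at the same signal limit in a list where signals run lower, the direction was the opposite, at 21.2 points over 32 sites (adjusted exact p = 0.0229). Most were genes annotated as ncRNA (100 sites). MicroRNA genes had 7 sites, led by mir-51 (85.3), mir-42 (63.0), mir-80 (62.1) and mir-90 (58.1), and piRNA genes had 20, led by 21ur-7377 (68.5). The long non-coding RNA genes linc-129 (67.1) and linc-169 (56.7) had 1 each. Antisense RNA genes had 4, with anr-3 first (59.5). Pseudogenes lay near 31 sites, with Y54G2A.20 first (88.1).

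The sites were assigned to 592 protein-coding genes, 4.12% of the 14364 on these chromosomes, and the thresholded peaks to 632, 4.4%. The 2 sets of genes shared 56, which is 9.46% of the first and 8.86% of the second. At C09E7.7 a site 124 bp upstream of the 5′ end (81.6) stood beside a thresholded peak 643 bp upstream (72.0). At lin-5, a spindle gene, a site 534 bp inside (62.2) stood beside a thresholded peak 237 bp upstream (92.8), and at ani-1, an anillin gene, a site 557 bp upstream (60.3) beside a peak 143 bp upstream (97.0). The counts per gene list below are descriptions, with no test, beside the 4.12% of all genes.

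DNA replication and cell cycle genes had a site in 13 of 60 cases (21.7%), and 11 had a thresholded peak, with 1 gene in both. The strongest was mcm-10, a replication initiation factor, 266 bp upstream (72.8). It had 36.8 in replicate 1 and no overlapping peak in replicate 2. The mitotic kinase gene cdk-1 followed (68.9, with 40.6 and 22.7), then cdc-37, a cochaperone gene of protein kinases (62.1, with 21.95 and 43.7), and bub-3 of the spindle checkpoint (60.2, with 33.7 and 30.2).

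Genes of membrane traffic had a site in 12 of 71 cases (16.9%) and a thresholded peak in 8, with 0 in both. They included rab-1, a GTPase of transport from the endoplasmic reticulum to the Golgi (68.1, with 24.6 in replicate 1 and 39.6 in replicate 2), the coatomer gene copz-1 (64.8, with 18.3 and 43.6), the late endosome gene rab-7 (62.6, with 39.6 and 26.7) and the translocon gene sec-61.A (59.3, with 16.2 and 44.4). The summit at copz-1 was 123 bp upstream of that gene and 145 bp upstream of cyn-4. Small ribosomal subunit genes had 6 of 22 (27.3%) against 9 with a thresholded peak, and large subunit genes had 4 of 31 (12.9%) against 11. Of the former, rps-12 (64.8, with 27.8 and 30.3, near 2 snoRNA genes), rps-15A (63.3), rps-8 (57.8) and rps-11 (54.2) led, and of the latter rpl-32 (55.3) and rpl-37.1 (55.1). Translation factor genes had 0 of 26 against 7. tRNA synthetase genes had 3 of 22, namely iars-1 (54.2), kars-1 (53.9) and tars-1 (51.1), against 2. Neither iars-1 nor kars-1 had an overlapping peak in replicate 2.

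Germ line genes had a site in 10 of 113 cases (8.85%) and a thresholded peak in 21. They were led by syp-2 of the synaptonemal complex (68.9, with 32.8 in replicate 1 and 22.01 in replicate 2), puf-6, a PUF family RNA-binding protein (67.2, with 35.3 in replicate 1 alone), msp-57 (63.3, at the SL2 gene above) and cgh-1, a helicase of germ granules (59.0, with 48.9 and 19.99). Histone genes had 5 of 74 against 13, led by his-70 (68.8), his-37 (61.3) and his-59 (54.97), and including hcp-3, the centromeric histone (50.2). The summit assigned to his-70 lay 889 bp upstream of it, inside the pseudogene E03A3.5. Of the 50-base words around that summit, 75.7% also occur elsewhere in the genome. The his-59 site had no overlapping peak in replicate 1. Splicing genes had 3 of 39 against 6, the third after snr-4 and snrp-200 being hrpu-2 (57.2, with no overlapping peak in replicate 1). Chromatin regulators had 4 of 55 against 8, led by the histone methyltransferase gene set-25 (71.4, with 59.1 in replicate 1 and no overlapping peak in replicate 2). Respiratory chain genes had 6 of 44 against 6, among them nuo-5 (56.7). Mitochondrial ribosome genes had 3 of 56 against 1, led by mrpl-36 (69.7, with 45.1 and 21.5) and mrpl-32 (66.1, with 43.3 and 17.4). The proteasome genes rpn-2 (67.6, with 21.5 and 48.2) and rpn-1 (55.4, with 24.1 and 27.9) made up 2 of 23 against 4.

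Ubiquitin genes had 3 of 49 against 7, led by uba-1, the ubiquitin-activating enzyme (62.6, with 26.2 in replicate 1 and 39.6 in replicate 2). Small RNA pathway genes had 3 of 44 against 6, led by the helicase gene rde-12 (54.4), with 2 separate sites at tofu-7 (53.5 and 52.96). Vacuolar ATPase and autophagy genes had 2 of 34 against 5, chaperones 2 of 52 against 5, and nuclear pore genes 1 of 28 against 4. They included epg-4 (63.3), the small heat shock gene hsp-16.20 (61.2, also near the snRNA gene F08H9.10) and npp-15 (52.9). RNA decay genes had 3 of 35 against 4, led by ntl-9 (60.7, with no overlapping peak in replicate 1). Tubulins and actins had 1 of 10 against 2. Homeobox genes had 1 of 56 against 1, ceh-43 (59.9, near a tRNA gene). Other transcription factor genes had 5 of 93 against 2, among them ztf-8 (65.2, with 30.2 and 31.7) and pha-4, the FoxA factor of pharynx development (60.4). Neither ceh-43 nor pha-4 had an overlapping peak in replicate 2.

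Collagen and cuticle genes had 6 of 137 (4.38%) against 1, led by col-139 (56.3) and col-110 (56.0). Chemoreceptor genes had 10 of 1212 (0.825%) against 3, and after srh-70 the next was srg-45 (59.0). Detoxification genes had 5 of 173 against 2. F-box and MATH genes had 7 of 379 against 8. Nuclear hormone receptors had 1 of 223, nhr-15 (64.4), against 3, and C-type lectins 1 of 200, clec-228 (52.9), against 2. Among tissue lists, neuronal genes had 4 of 121 against 1, led by the neuropeptide gene nlp-32 (69.2, with 32.5 and 35.5), and intestinal genes had 4 of 46 against 3, among them the fatty acid desaturase gene fat-6 (64.2, with 43.9 and 18.8). Body muscle, pharynx and sperm lists had 1 each.

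The sites were rich in G and C, as the thresholded peaks were. In windows of 50 bases on either side of the summit, G and C made up 44.0% over the sites, 45.1% over the thresholded peaks and 39.3% over all ranked rows on II to V, and 36.9% in windows moved 250 bp to 1 side of the same sites. The share was 47.6% at coding exon sites, 43.2% at promoter sites, 43.5% at intron sites and 44.6% at sites between genes. Promoter sites can include coding sequence, but sites between genes were also above the 39.3% of all ranked rows. The moved windows were not split by class.

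**Figure D5:**
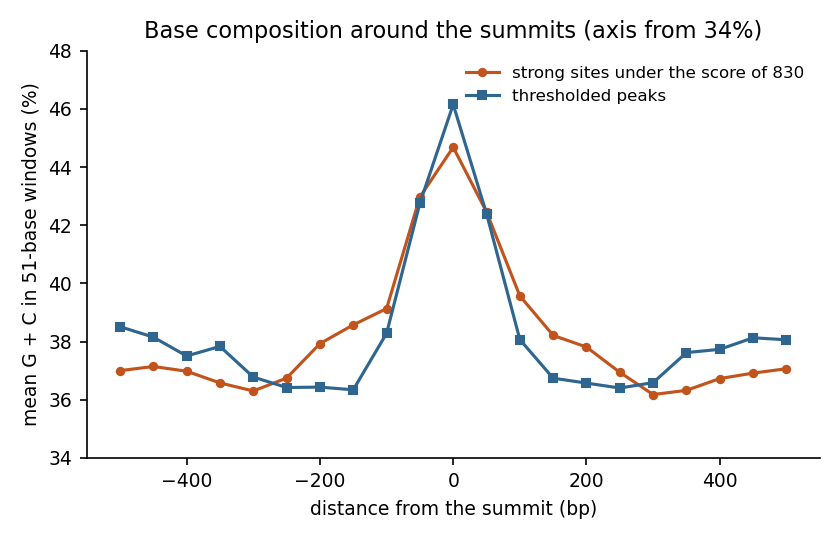
Mean share of G and C in windows of 51 bases (vertical axis, starting at 34%) by distance from the summit (horizontal axis, bp) for the 1332 sites (orange) and the 1189 thresholded peaks (blue). Both peak at the summit, at 44.7% and 46.2%, and lie between 36.2% and 38.5% from 250 bp outward.

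Of the 10 words counted, GCGCGC and CTGCGTC differed most in share between the sites and the thresholded peaks. GCGCGC was in 35 site windows (2.63%) and in 99 thresholded windows (8.33%), against 1.16% of all ranked rows and 0.676% of the moved windows. CTGCGTC was in 37 (2.78%) and 72 (6.06%), against 1.38% and 0.751%. Among the 96 thresholded peaks with signals from 50 to 60, 1 held GCGCGC and 4 held CTGCGTC, which is too few to compare. The windows at fat-6 and uba-1 printed above carry the first word and those at srh-70 and C18E9.8 the second. GAGAGA was in 10.5% of site windows, 12.03% of thresholded windows and 6.17% of all ranked windows, and CACGTG in 3.75%, 3.87% and 2.22%. GGTTCGA was in 2.55%, 3.45% and 0.999%. Words rich in A and T were rarer at the summit than beside it: AAAAAA was in 24.1% of site windows and in 38.1% of the moved windows, and TATAAA in 5.71% and 10.2%. TTTCAG, the usual end of an intron in this species, was in 14.2% of the site windows, 10.9% of the thresholded and 18.4% of all ranked windows. GATAAG (4.05%, with the same count in the moved windows) and TGACTCA (0.601%) were as frequent beside the summit or nearly so. A word is a run of letters and not a shown binding site, and the words were not tested.

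Along the genome the sites were densest on III, with 26.1 per megabase (360 sites), then II with 21.2 (324), IV with 17.4 (305) and V with 16.4 (343). There were 1.25 sites for each thresholded peak on V, 1.19 on II, 1.05 on III and 1.02 on IV. The middle 50% of the chromosomes held 57.2% of the sites and 61.6% of the thresholded peaks (adjusted exact p = 0.0340), a difference that was no longer called with sites of 60 or more (adjusted exact p = 0.0882), with a score under 540 (0.0865) or between signals of 50 and 60 (0.106), 55 and 60 (1) or 60 and 70 (0.732). Sites stood mostly alone. The nearest thresholded summit was at a median distance of 14948 bp, it was within 1000 bp at 7.58% of the sites, and 54 neighbouring pairs of sites had summits within 1000 bp. At 34 sites (2.55%) at least 50% of the 50-base words within 100 bp occur elsewhere in the genome, against 3.70% of the thresholded peaks (adjusted exact p = 0.122).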

How the data were processed

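Peak lists of 1 group with 2 samples were used, on assembly ce11 per the file headers. The authors deposited a signal and a score for each peak, the −log10 of the irreproducible discovery rate and 2 compared signals in ranked lists, and thresholded lists that also derive from 1 further file. The aligner and peak caller are not stated, and their releases are likewise not given in the sources used here. Each list's signal was used within that list, and a replicate's value is its strongest ranked peak overlapping by 1 bp. Ensembl release 115 and RefSeq gave genes, of which 19965 of 19973 matched. The main genes named are those at the 30 highest signals and the 4 highest of each list. The members and gene lists were chosen with earlier results of these data known. Shares were compared by two-sided Fisher's exact tests, checked on simulated data, with Benjamini-Hochberg adjustment and a threshold of 0.05. Shares carry 95% Clopper-Pearson intervals, which cover only counting error. Alternatives changed the signal, the score, the lists, the windows and the word length. Tests were run in scipy 1.17.1 (Python 3.11.15), with tables in pandas 2.3.3, arrays in numpy 2.4.6, and plots in matplotlib 3.10.9.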

Additional observations from a re-analysis of the deposited data

How the results depend on the processing

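With a signal of 40 or more the rule gives 4550 sites, with 60 or more 272, with a score under 540 546, and with the lists of a single replicate 15 to 32; with overlapping rows merged it gives 1331 and with the conservative lists 1438. Below, values are the share among the sites minus that among the compared peaks, in percentage points. With the lists of a single replicate the difference ranged from -4.69 to -2.80 for promoters, from -6.65 to 2.59 for coding exons, from -9.12 to 0.651 for introns, from 7.30 to 18.2 between genes, from -3.11 to 10.3 near small and from -8.30 to 21.2 near other non-coding RNA genes, from -4.03 to 4.71 for chromosome centres and from 2.09 to 8.71 for repeated sequence. These rest on 15 sites without replicate 1 and 32 without replicate 2, and 1 of them passed, the 21.2 points near other non-coding RNA genes without replicate 2 (adjusted exact p = 0.0229), against the direction of the full set. The signal limit of 50 was kept in the lists of a single replicate, where signals run lower, so these rows are not a like set. Apart from these and from the 55 to 60 and 60 to 70 classes below, the promoter and coding exon differences kept their direction and their call. For sites of 60 or more the calls were lost for introns (0.564), small (-2.13) and other non-coding genes (-2.61) and chromosome centres (-7.24), and the difference between genes turned to 4.80. With a score under 540 the difference between genes was 0.696, that for repeated sequence 0.146, and the call for centres was lost (-4.69). For introns the call was lost with the conservative lists (2.20), with compared peaks in the signal range of the sites (2.79) and with both sets at 50 to 60 (9.30). With both sets at 50 to 60, added after seeing the data, it was also lost for small non-coding genes (-0.869) and centres (-9.78). With both sets at 55 to 60 and at 60 to 70, also added after seeing the data, none of the 8 shares was called: the values were -11.8 and -2.22 for promoters, 7.001 and 4.28 for coding exons, 8.79 and -2.04 for introns, -0.377 and 3.97 between genes, -1.81 and -1.07 near small and -7.84 and 0.281 near other non-coding genes, -0.389 and -7.62 for centres, and -5.30 and 0.677 for repeated sequence. Repeated sequence was called with sites of 40 or more (-1.66) and with words of 36 bases (-2.47). The causes were not tested. The share of sites with a ranked peak in each replicate was 76.6% for signals of 40 or more, 92.6% for 60 or more, 80.6% for a score under 540 and 79.4% for summits within 100 bp. Without read totals, no error of a signal can be given.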
